A study of Drosophila melanogaster with 2 samples.

Results

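In the Hi-C map of Drosophila Kc167 cells, 3961 of the 11456 tested bins of 10 kb on X and the arms of chromosomes 2 and 3 (34.6%) were dominated by short-range interactions. Members were chosen by the map itself. For each bin, the normalised signal with bins 10 to 50 kb away was divided by that with bins 60 to 500 kb away on the same arm, and a bin was a member when this ratio reached 1.25. Bins with a raw cis total under 0.25 of the arm median were left out, which removed 445 of 11901 bins. The ratio and the interactions up to 500 kb are therefore a description of how the bins were picked, and the values that the ratio did not use are those beyond 500 kb, between arms and within a bin. Di-tags within a bin and beyond 500 kb entered the choice only through the minimum cis total. The remaining 7495 tested bins are called other bins.

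Kc167, called Kc in the labels, is an established cell line derived from Drosophila embryos. The labels name no treatment or genotype, and cells were fixed with formaldehyde and digested with DpnII in 2 replicates, and ligated DNA ends were sequenced as di-tags, each counting as 1 contact. Both replicates were combined before binning, so there is 1 map, 1 condition and no spread between replicates. No difference below carries a test between replicates. Intervals are 95% intervals of the counting error of di-tags or bins only, and neighbouring bins are not independent. The map holds 33366093 di-tags on these arms, of which 29686088 join positions of the same arm.

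Contact frequency in Hi-C falls with distance along the chromosome, and chromatin differs in how steep that fall is. Topologically associated domains (TADs) are stretches whose bins interact with each other more than with their neighbours. In Drosophila, gene-dense transcribed chromatin is known for small domains and a loose fibre, whereas silent and Polycomb-bound chromatin forms larger, compact domains with interactions across their whole length. The members here were picked by contact alone, and no mark of chromatin state was measured in them.

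Members had a median ratio of 1.67 (quartiles 1.43 and 2.02), and other bins of 0.796 (quartiles 0.625 and 0.992). The median short-range signal was 4154 in members and 3420 in other bins, 1.21 times as high. The median long-range signal was 2434 in members and 4400 in other bins, 0.553 times as high. On this normalised signal, which the rule used, members thus differed more by what they lacked at long range than by what they gained at short range. Each ratio rested on a median of 2238 short-range and 1253 long-range raw di-tags in members, against 1564 and 1967 in other bins. On these raw medians the gain and the loss were nearer to each other in size. The raw cis total of a bin was nearly alike, with a median of 5038 di-tags in members and 4903 in other bins.

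The ratio had no gap at the threshold. Of all tested bins, 28.5% lay under 0.75, 21.0% between 0.75 and 1, 15.9% between 1 and 1.25, 11.6% between 1.25 and 1.5, 13.9% between 1.5 and 2, 7.63% between 2 and 3 and 1.41% at 3 or above. The members just inside the threshold were on 3R from 12210001 to 12220000 (1.2500), X from 8470001 to 8480000 (1.2505) and 3L from 4000001 to 4010000 (1.2506). The bins just outside were on 3R from 26110001 to 26120000 (1.2499), 2L from 21310001 to 21320000 (1.2497) and 2L from 10120001 to 10130000 (1.2494). The counting interval of the ratio lay wholly at or above the threshold for 3386 members (85.5%), and it reached the threshold in 570 other bins (7.61%). With the short range started at 20 kb and the same threshold, 590 bins passed, or 14.9% of the 3961. Leaving out the 10 kb step can only lower a ratio, so a smaller number within the members was fixed by construction.

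The 5 highest ratios belonged to bins of low depth. On 3R from 4720001 to 4730000 the ratio was 19.8, on 2R from 9990001 to 10000000 it was 15.4, and on 3L it was 13.2 from 120001 to 130000, 9.57 from 130001 to 140000 and 8.80 from 100001 to 110000. These bins held between 1225 and 1948 cis di-tags, against the median of 5038 over members. The same ratios taken from raw di-tags were 2.76, 3.22, 4.61, 4.15 and 2.64, still over the threshold but far from the normalised values. The highest values of the scale thus depend on the normalisation.

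**Figure D1:**
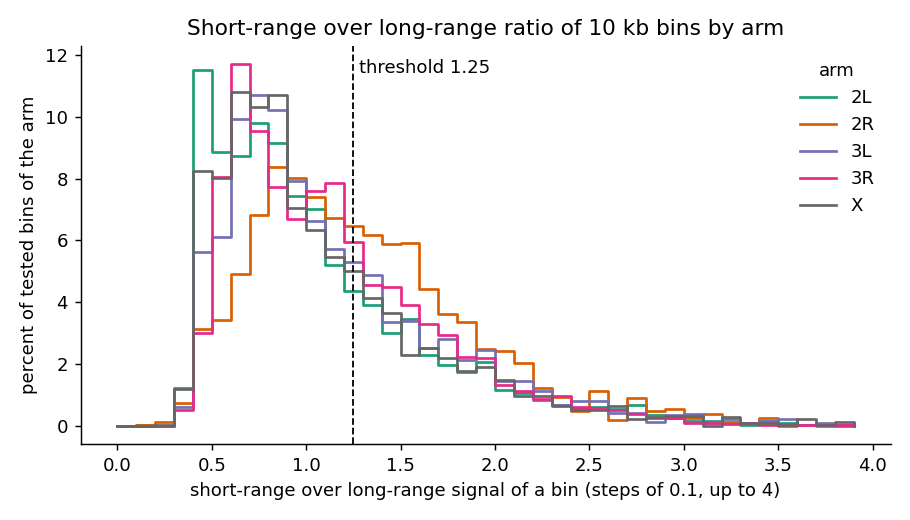
Percent of the tested 10 kb bins of each arm (y axis) by short-range over long-range signal (x axis, steps of 0.1, bins of 4 and above not drawn), with a line for each of the 5 arms and a dashed line at the threshold of 1.25. The curve of 2R lies to the right of the other arms, with a median ratio of 1.21.

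The 5 arms held unequal shares of members. Arm 2R was the richest, with 948 of 2010 tested bins (47.2%, 95% Wilson interval 45.0 to 49.3%). It contributed 23.9% of the members from 17.5% of the tested bins. The shares were 34.5% on 3R (951 of 2760), 33.9% on 3L (786 of 2322), 29.6% on X (633 of 2142) and 28.9% on 2L (643 of 2222), against 34.6% over all tested bins. The share of 2R was the highest, but Wilson intervals take bins as independent. Members lie in runs, so these intervals are too narrow to tell arms apart. The median ratio over all tested bins of an arm was 1.21 on 2R and between 0.908 and 1.04 on the other arms. The other bins of 2R were also higher, with a median ratio of 0.886, against 0.753 to 0.8 on the other arms. Among the members, which start at the threshold, median ratios lay between 1.64 (3R) and 1.71 (3L).

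Members were spread along each arm but not evenly. In 117 windows of 1 Mb, the share of members had a median of 36.0% (quartiles 18.0 and 50.0%) and extended over 0 to 81.6%. The richest windows were 3R from 5000001 to 6000000 (81.6%), 3L from 100001 to 1100000 (80.8%), 3L from 16100001 to 17100000 (74.7%), 2R from 20020001 to 21020000 (73.7%) and 2R from 3020001 to 4020000 (71.0%). No member was found on 2L from 15060001 to 16060000 (94 tested bins), where the median ratio was 0.481, and 1 member in the adjoining window from 14060001 to 15060000. The 3L window from 100001 and the 2R window from 20020001 lie at an arm end, where a part of the long range has no partner bins on one side. On X, the window from 4040001 to 5040000 held 3 members among 99 bins.

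The ends of the arms went different ways. The last 1 Mb of 2L, the first 1 Mb of 2R and the last 1 Mb of 3L lie next to a centromere, and they held 2 members of 75 tested bins (2.67%), 0 of 58 and 0 of 31. The counts of 0 allow a share of up to 5.17% on 2R and 9.68% on 3L. The last 1 Mb of X, also on the centromere side, held 9 of 60 (15%). The first 1 Mb of 3R, the remaining such end, held 36 of 100, close to the 33.9% of the rest of that arm. At the telomere side, 3L had 80 of 99 members (80.8%), 2R 69 of 94 (73.4%), 2L 55 of 100 (55%) and 3R 46 of 98 (46.9%). X had 16 of 91 (17.6%) there, and 30.5% over the rest of X. Near an arm end the long range loses partners on one side before the short range does, which raises the ratio. With each one-sided distance counted double, the telomere sides held 80.8% on 3L, 70.2% on 2R, 55% on 2L, 37.8% on 3R and 15.4% on X. The centromere sides of 3R and X then held 31% and 11.7%, and the counts of 2L, 2R and 3L there were the same.

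Members lay in stretches of adjacent bins. The 3961 members formed 567 runs with a median length of 40 kb (quartiles 20 and 80 kb). Runs of 1 bin were frequent, with 128 of 567 (22.6%), but held 3.23% of the members. Runs of at least 10 bins numbered 114 and held 2424 members (61.2%), and the 48 runs of at least 20 bins held 39.2%. The median run was 35 kb on 2L and 40 kb on each of the other arms. The stretches between runs had a median of 40 kb and extended up to 1460 kb on 2L and 1390 kb on 3L. Of these gaps, 137 were a single bin, and bridging them gave 430 runs with a median of 50 kb and a longest run of 770 kb.

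The ratio was higher in longer runs. Runs were cut from this same ratio, and neighbouring bins share most of their long range. Such a rise is therefore in part built in, and the values are a description. Its median was 1.3 in runs of 1 bin, 1.41 in runs of 2 to 4 bins, 1.52 in runs of 5 to 9, 1.72 in runs of 10 to 19 and 1.90 in runs of 20 or more bins. At the ends of the 114 runs of at least 10 bins the ratio changed over several bins. The first member had a median ratio of 1.44, the next member 1.67, the next 1.76 and the member 40 kb from the first 1.86, whereas the tested bin just outside had 1.12. The step between the first member and the bin outside is imposed by the threshold.

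The longest run covered 690 kb of 2L, from 7840001 to 8530000, with 69 members in a row and ratios from 1.3 to 3.41 (median 2.13). It held 12 TAD boundaries and parts of 13 TADs, of which the largest was 110 kb. The next was a run of 640 kb on 2R from 19450001 to 20090000, with a median ratio of 1.83 and 12 boundaries. On 3L a run of 540 kb began near the telomere, from 120001 to 660000, with a median of 1.91 and 9 boundaries. Each of the 10 longest runs, which spanned 400 to 690 kb, thus crossed between 6 and 12 boundaries.

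Inside these 10 runs the fall of interaction with distance was steep. Most of these pairs lie at distances that the rule used, so the fall is in part built in and the values are a description. Against the mean of the arm at the same distance, interactions between adjacent bins were between 1.20 and 1.72 times as frequent. Between bins 20 to 50 kb apart they were between 0.891 and 1.29 times as frequent, and between bins 60 kb or more apart between 0.394 and 0.843 times. The run on X from 1720001 to 2170000, with a median ratio of 2.42, had the highest value at 10 kb (1.72) and 0.455 at 60 kb and above. The telomeric run of 3L kept the most long-range interaction (0.843). The median depth of the bins in a run was lowest there, with 4126 cis di-tags, and it was up to 6137 in the other 9 runs.

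The rule also picked members in the regions that the study drew, in shares below those of their arms. On X from 1 to 6 Mb, 128 of 489 tested bins (26.2%) were members, against 29.6% on X and 34.6% over all tested bins. They formed 15 runs, of which 10 had at least 5 bins. After the run of 450 kb described above, the largest there were 140 kb from 2490001 to 2630000 (median ratio 1.86), 110 kb from 3580001 to 3690000 (median 2.62, highest bin 4.68) and 100 kb from 5550001 to 5650000 (median 2.2). On 2L from 10 to 12 Mb, 43 of 198 tested bins (21.7%) were members, in 3 runs, against 28.9% on 2L. The main run of that region covered 310 kb from 10210001 to 10520000, with a median ratio of 1.94 and 7 boundaries inside it, and the second 100 kb from 11010001 to 11110000 (median 1.7).

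With increasing distance the curves of both kinds of bin crossed between 30 and 40 kb. Between adjacent bins the mean normalised signal was 970 at members and 619 at other bins, a ratio of 1.57. At 20 kb it was 489 and 388, and at 30 kb 315 and 296. At 50 kb members had 170 and other bins 211, and at 100 kb 65.3 and 123. The ratio of members to other bins was lowest at 160 kb and was 0.653 at 500 kb. Beyond the distances that the choice used it continued to close, with 0.734 at 700 kb and 0.807 at 1000 kb. Thus the deficit of members on the normalised signal ran on past the window of the rule and became smaller up to 1000 kb, where these curves end. Beyond 1 Mb only another measure was taken, the mean signal by kind of pair, pooled over distances and arms. It was 0.88 between members, 0.806 between other bins and 0.714 between a member and another bin. These means are not matched for distance, so they do not show where the deficit of members ends.

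**Figure D2:**
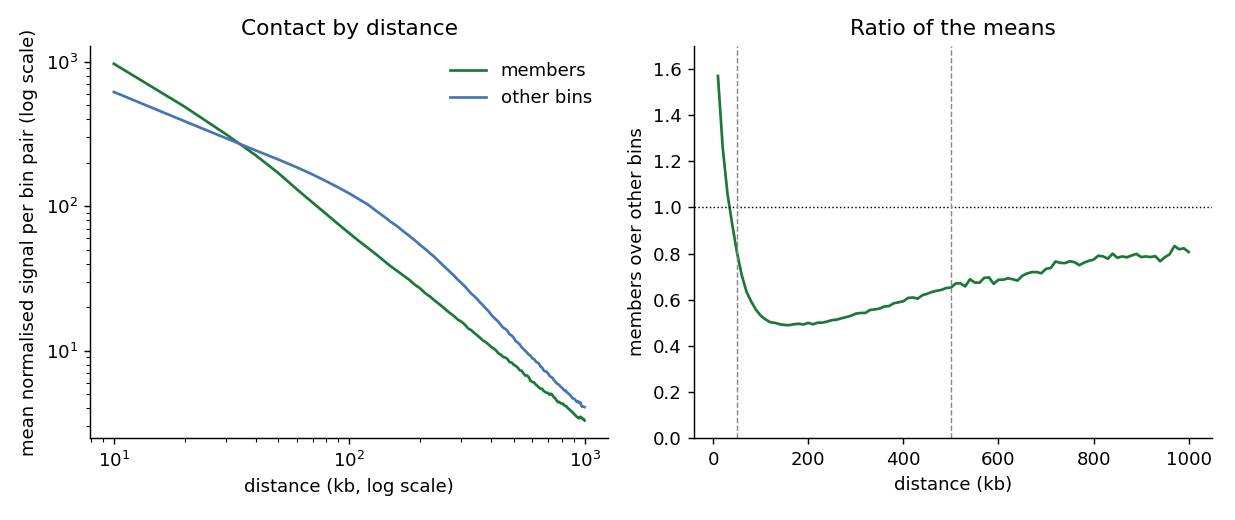
Left, mean normalised signal per bin pair (y axis, log scale) against distance in kb (x axis, log scale) for pairs with a member at one end (green) and pairs with another bin at that end (blue). Right, the ratio of both means against distance, with dashed lines at 50 and 500 kb, the ends of the short and long range, and a dotted line at 1. The ratio falls below 1 after 30 kb and is 0.807 at 1000 kb.

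Interactions within a bin, which were not part of the ratio, went the same way as the short range. The median normalised within-bin signal was 636 in members (quartiles 476 and 823) and 334 in other bins (quartiles 258 and 471). Within-bin di-tags made up a median of 7.08% of the cis di-tags of members and 3.17% of those of other bins. The share of cis di-tags beyond 500 kb was close, with medians of 21.8% in members and 22.0% in other bins. Interactions with other large arms took a median of 12.2% of all di-tags of a member and 10.5% of those of another bin. The quartiles of the last measure overlap (10.8 to 13.6% and 9.13 to 12%).

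Members lay mostly in TADs of small and middle size. A member lay in a TAD of median 70 kb (quartiles 50 and 90 kb), against 180 kb (quartiles 120 and 250 kb) for other bins. TADs of 40 kb or less held 19.9% of the members and 5.31% of other bins. TADs of 50 to 110 kb held 66.8% of members and 19% of other bins, and TADs of 120 kb or more 13.3% and 75.7%. The TADs were segmented on the same normalised map that gave the ratio, and a bin of a large TAD has long-range interactions by the nature of that segmentation, so TAD size is not an independent measure.

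Seen from the TADs, members filled 66.4% of the tested bins in TADs of 40 kb or less, 65% in TADs of 50 to 110 kb and 8.49% in TADs of 120 kb or more. The shares of both smaller classes were thus close. Among large TADs the share declined with size, with 23.3% in TADs of 120 to 150 kb, 6.72% in TADs of 160 to 200 kb and 0.683% (19 of 2781 bins) in larger ones. Of 1301 TADs with tested bins, 435 consisted of members alone, 416 held none and 450, the largest group, held both. The median size was 50 kb for those made of members alone, 130 kb for those with none and 80 kb for those with both. Small TADs were not all of the first kind, since 107 of 387 TADs of 40 kb or less (27.6%) held no member.

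Members were closer to TAD boundaries than other bins. Of the members, 1152 (29.1%, 95% Wilson interval 27.7 to 30.5%) adjoined a boundary, with their centre within 10 kb, against 1349 other bins (18.0%, 17.1 to 18.9%) and 21.8% of all tested bins. The median distance to the nearest boundary was 15 kb for members and 35 kb for other bins. Further than 50 kb from any boundary lay 7.45% of members and 38.4% of other bins. Boundaries are the ends of the same TADs, and every bin of a small TAD lies near one. Distance to a boundary is therefore not independent of TAD size or of the map that gave the ratio.

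Within TADs of one size class the share of members was not highest at the boundary. In TADs of 50 to 110 kb, members made up 58.4% of the bins at the boundary, 68.3% of those 15 kb away and 68.9% of those 25 kb away. In TADs of 40 kb or less the share was 61.5% at the boundary and 74.8% at 15 kb. In TADs of 120 kb or more it was 5.87% at the boundary and highest at 55 kb with 18.9%, a distance at which bins of the smaller TADs of that class lie near the centre. Further in it was 5.37% at 75 kb, 3.65% at 85 kb and 2.59% at 95 kb, so the innermost bins of this class, found only in its larger TADs, were members least often. In each class the bins that touch a boundary were members less often than the bins next to them. Their intervals, which take bins as independent, lay apart in both smaller classes. They overlapped in the largest (4.29 to 7.99% and 5.37 to 9.41%).

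**Figure D3:**
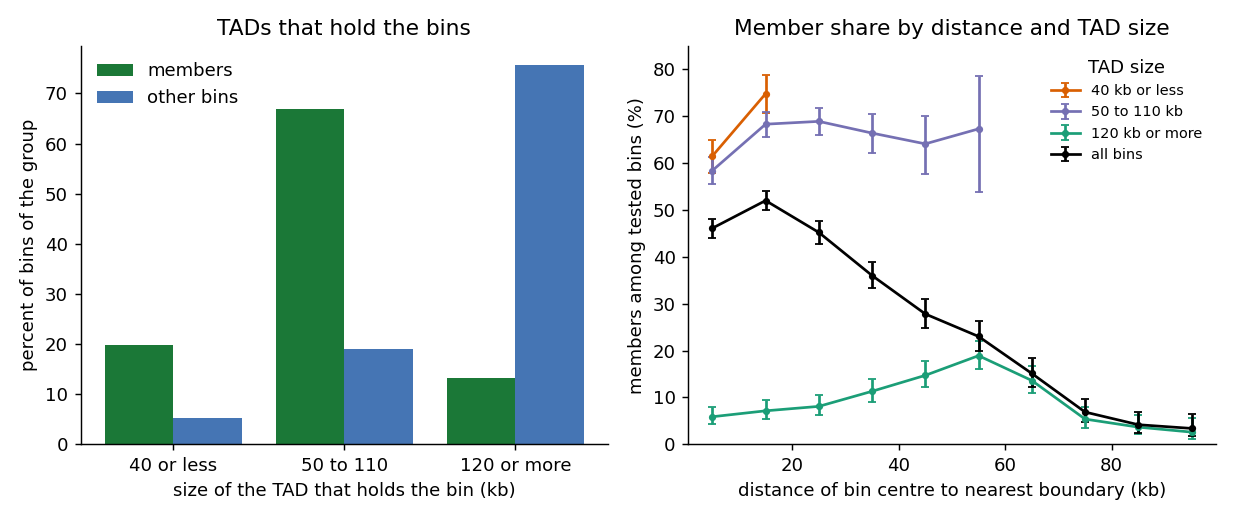
Left, percent of members (green) and of other bins (blue) that lie in TADs of 40 kb or less, 50 to 110 kb and 120 kb or more. Right, percent of tested bins that are members (y axis, bars are 95% Wilson intervals) by distance of the bin centre to the nearest TAD boundary in kb, for all bins and for bins of each TAD size class. Over all bins the share is 46.1% at 5 kb, 52.0% at 15 kb and 3.38% at 95 kb, and within TADs of up to 110 kb it is lowest at the boundary.

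Of 1272 boundaries, 1234 had a tested bin on both sides. At 451 of these (36.5%) both bins were members, at 236 (19.1%) one was, and at 547 (44.3%) neither was. Over all 11269 pairs of adjacent tested bins these shares were 30.1%, 9.10% and 60.8%. Changes between a member and another bin numbered 1025, and 23.0% of them fell on a boundary, against 11% of all adjacent pairs. The majority of run ends thus lay inside a TAD as segmented. Conversely, 302 of the 567 runs (53.3%) held or touched a boundary. No such share was computed for other stretches of equal length, so this count alone does not tie runs to boundaries. Runs of at least 10 bins contained 371 boundaries, which is 15.3 per Mb, against 10.7 per Mb over the arms.

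The mutual contact of members was measured on pairs of tested bins of one arm that lie more than 500 kb apart, as observed over expected signal, the expected value being the arm mean at equal distance. Over 1525085 pairs, members interacted with members at 1.17 times the expected signal. Members with other bins were at 0.939 and other bins among themselves at 1.02. Raw di-tags over the expected number at equal distance gave 1.23 for member pairs (892161 di-tags, Poisson interval 1.23 to 1.23), 0.915 for mixed pairs and 1.03 for other pairs. These pairs were not used to choose the members, although the normalisation factor of each bin is shared.

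The pattern changed with distance. From 500 kb to 1 Mb, member pairs were below the arm mean with 0.898, mixed pairs were lower still with 0.799, and pairs of other bins were at 1.24. On raw di-tags the value of member pairs in this band was 1.05, on the other side of 1, so their standing against the arm mean was not settled by these data. From 1 to 2 Mb member pairs were at 1.12, from 2 to 5 Mb at 1.16, from 5 to 10 Mb at 1.19 and over 10 Mb at 1.20. Mixed pairs stayed below 1 in every band, with 0.89, 0.923, 0.939 and 0.98. Pairs of other bins declined to 1.08, 1.04, 1.01 and 0.967, so that beyond 10 Mb, over all arms together, only member pairs were above the arm mean.

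All arms showed the excess between members beyond 1 Mb, in different strength. From 2 to 5 Mb it was 1.36 on 2L, 1.28 on X, 1.21 on 3L, 1.10 on 3R and 1.05 on 2R. Over 10 Mb it was 1.27 on X, 1.26 on 2L, 1.20 on 3L, 1.20 on 3R and 1.12 on 2R. Arm 2R, with the largest share of members, had the lowest value in both bands, and from 2 to 5 Mb its pairs of other bins had the same value of 1.05.

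A measure free of how much a kind of bin interacts in all is the product of both like-with-like values over the square of the mixed value, which is 1 where kinds of bin mix freely. Over all arms it was 1.74 from 500 kb to 1 Mb, 1.53 from 1 to 2 Mb, 1.41 from 2 to 5 Mb, 1.36 from 5 to 10 Mb and 1.21 over 10 Mb. On raw di-tags it was 1.75, 1.59, 1.43, 1.37 and 1.22. Over all arms together, the preference of each kind of bin for its own was therefore highest from 500 kb to 1 Mb and declined with distance. In that band member pairs were below the arm mean on the normalised signal. The band adjoins the long range of the rule, and signal at neighbouring distances is alike. Its value may thus carry over from the choice of bins, which was not tested. The decline over all arms was also present across the bands beyond 1 Mb. On the normalised signal 2R and X fell at each step, but the other arms did not. The product rose on 3R from 1.48 below 1 Mb to 1.52 from 1 to 2 Mb. On 2L it rose from 1.68 at 1 to 2 Mb to 1.74 at 2 to 5 Mb, and on 3L from 1.39 at 2 to 5 Mb to 1.41 at 5 to 10 Mb. The product exceeded 1 on each arm in each band, the lowest value being 1.13 (2R, over 10 Mb) and the highest 2.16 (2R, 500 kb to 1 Mb). This highest value depended on the normalisation, being 1.54 on raw di-tags. From 2 to 5 Mb it was 1.22 on 2R and between 1.39 and 1.74 on the other arms.

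**Figure D4:**
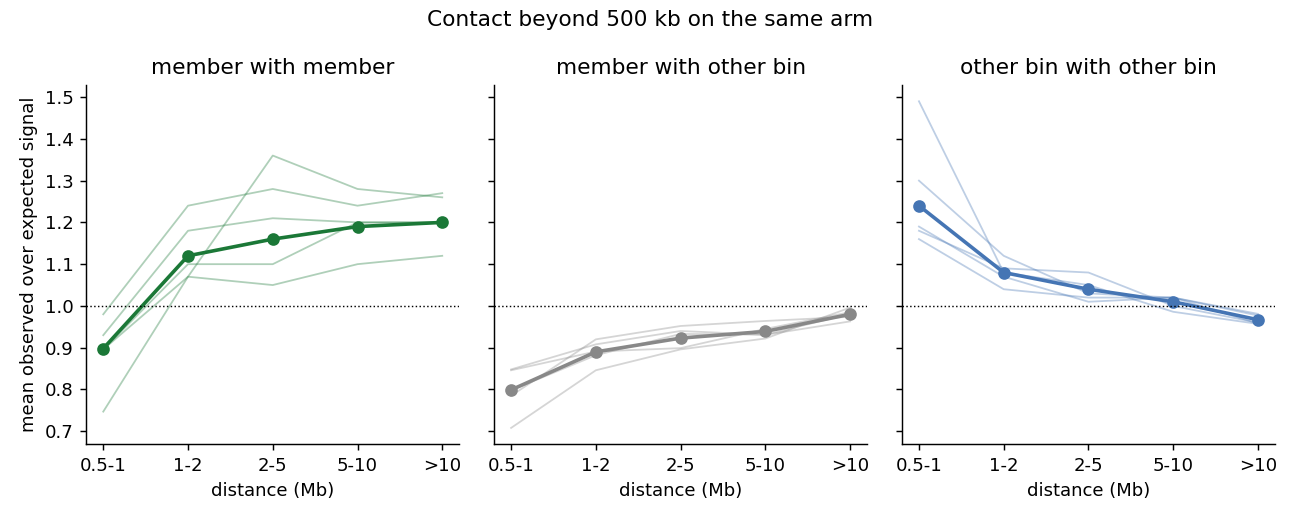
Mean observed over expected signal (y axis) by distance on the same arm in Mb (x axis) for member pairs (green), mixed pairs (grey) and pairs of other bins (blue). Thick lines with points are all arms together, thin lines are the 5 arms, and the dotted line marks the arm mean. Member pairs are at 0.898 below 1 Mb and at 1.20 over 10 Mb, whereas pairs of other bins are at 1.24 and 0.967.

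The preference was graded with the ratio. Among pairs over 1 Mb apart, bins with a ratio of 2 and over interacted with each other at 1.39 times the expected signal (94959 pairs). They interacted with bins between 1.25 and 2 at 1.22 times, with bins between 1 and 1.25 at 1.07, with bins between 0.75 and 1 at 0.971 and with bins under 0.75 at 0.842. Bins between 1.25 and 2 were at 1.12 among themselves and at 0.876 with bins under 0.75. Bins just under the threshold, between 1 and 1.25, were above 1 with both classes of members, so the threshold did not mark a change of partner. At the other end, bins under 0.75 were at 1.08 among themselves.

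**Figure D5:**
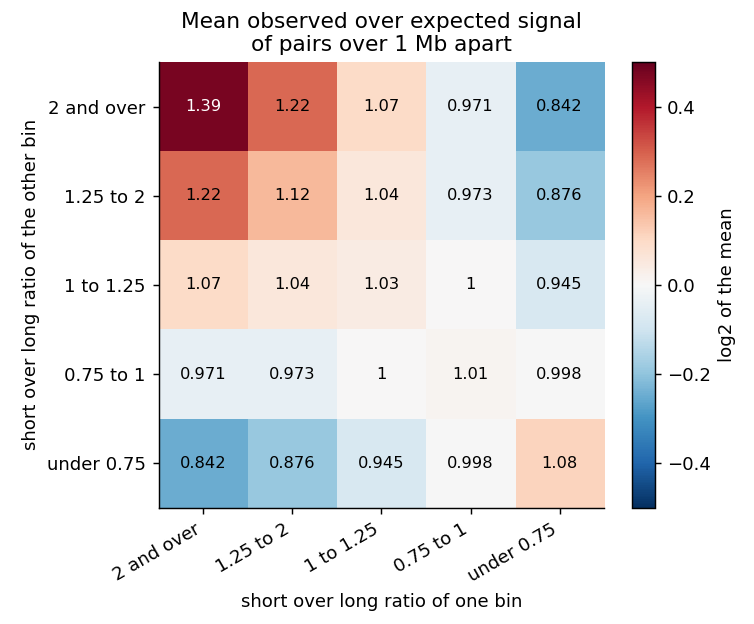
Mean observed over expected signal of bin pairs over 1 Mb apart on the same arm, by the short-range over long-range ratio of both bins, with the members (1.25 to 2, and 2 and over) at the top and left. Colours are the log2 of the value printed in each cell, which is highest for pairs of bins of 2 and over (1.39) and lowest for bins of 2 and over with bins under 0.75 (0.842).

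Long runs carried more of this contact than short ones. Beyond 1 Mb, members in runs of 20 or more bins were at 1.21 with other members and at 0.931 with other bins, and members in runs of 10 to 19 bins at 1.22 and 0.942. Members in runs of 5 to 9 bins were at 1.14 and 0.958, those in runs of 2 to 4 bins at 1.12 and 0.962, and the 128 members that stood alone at 1.07 and 0.987. The lone members also lay in larger TADs, with a median of 90 kb against 60 kb in runs of 20 or more bins. They adjoined a boundary in 15.6% of cases (20 of 128, 95% Wilson interval 10.3 to 22.9%), an interval that includes the 18.0% of other bins.

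Single pairs of runs varied widely. Among 11555 pairs of runs of at least 3 bins on one arm, more than 500 kb apart and with at least 9 bin pairs, the mean observed over expected signal had a median of 1.09 (quartiles 0.814 and 1.39). It exceeded 1 in 58.0% of pairs and 2 in 5.71%. For runs of other bins under the same limits the median was 0.948 over 17348 pairs, of which 43.7% exceeded 1 and 3.53% exceeded 2. Pairs of a member run with a run of other bins were close to these, with a median of 0.929 over 28372 pairs. Of them, 41.6% exceeded 1 and 3.57% exceeded 2. The highest value was 13.0, on 2R between 6970001 to 7000000 and 10550001 to 10580000, which are 3.55 Mb apart and share 131 di-tags over 9 bin pairs. The first of these runs also had 8.35 times the expected signal with the run from 10670001 to 10710000 (92 di-tags). On 3R the runs from 3900001 to 3950000 and from 8460001 to 8540000, 4.51 Mb apart, had 7.79 times with 169 di-tags. In these 3 pairs the median over single bin pairs was 12.4, 7.64 and 6.33, so the value was not made by 1 bin pair. The other pairs among the highest rested on 6 di-tags (3R, 23.3 Mb apart, 9.10 times) and 5 di-tags (2R, 11 Mb apart, 8.05 times) with a median of 0, and say little.

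Between arms the same preference was weaker. Raw di-tags between members of different arms were 1.04 times the number expected from the totals of both bins in that pair of arms (570885 di-tags, Poisson interval 1.04 to 1.04). Mixed pairs were at 0.973 and pairs of other bins at 1.02. On the normalised signal, over its mean in that pair of arms, member pairs were at 1.20, mixed pairs at 1.00 and pairs of other bins at 0.943, so the pairs of other bins lay on different sides of 1 in the raw and the normalised map. Raw member pairs lay above 1 for each of the 10 pairs of arms, from 1.02 (2R with 3L and 2R with 3R) to 1.08 (2L with X). For the arms of one chromosome this value lay inside that range, with 1.04 for 2L with 2R and 1.05 for 3L with 3R. It is scaled within each pair of arms, so it does not show how much these arms interact in all. The like-with-like product over the square of the mixed value was 1.12 over all pairs of arms, below the 1.21 of pairs over 10 Mb apart on one arm, and 1.13 on the normalised signal.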

How the data were processed

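The authors aligned the paired reads to release 5 (dm3) of the Drosophila genome with HiCUP (Bowtie2 2.2.6 per the labels), combined both replicates, binned at 10 kb and deposited raw counts of di-tags per bin pair. They also deposited the signal normalised with GOTHiC for the same pairs, with cis pairs listed in both directions, and HiCseg segments of the normalised map from which they had removed the weakest borders, here called TADs (other values: coordinates). Unlisted pairs were taken as 0. The minimum cis total of a tested bin was between 1111 and 1353 di-tags on the arms.

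The expected signal is the mean over tested pairs of an arm at equal distance. The distance to a boundary is from the bin centre. Intervals of shares are Wilson intervals, those of di-tags exact Poisson intervals, and those of ratios come from the di-tags of each sum; all cover counting error only, and PCR copies or shared sources of di-tags were not examined. With 1 pooled map no test was made. Regions were named by rule, namely the 10 longest runs, the 5 highest ratios, the 3 bins on each side of the threshold, the 5 highest pairs of runs and the runs in windows that the study drew, with the windows of 1 Mb added after their values were seen. Members, classes and alternatives were chosen with earlier results of these data known, and the like-with-like product and the ratio classes after the contact values were seen. The rule and the contact beyond 500 kb were run on simulated maps with planted bins, the contact over the planted bins and not over those chosen. TADs, boundaries and contact between arms were not simulated. Values were computed in Python 3.11.15 with pandas 2.3.3, numpy 2.4.6 and scipy 1.17.1, and plots drawn with matplotlib 3.10.9. Sequence and genes of release 5 were not used here.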

Additional observations from a re-analysis of the deposited data

Results flagged for a closer look

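Interactions with chromosome 4 and the heterochromatic scaffolds enter none of the comparisons above and are listed here because they were present, over the 3 di-tags that a count of 0 would allow, which says nothing of a difference between kinds of bin. Members had a mean of 40.2 such di-tags per bin (Poisson interval 40 to 40.4) and other bins 36.1 (35.9 to 36.2). They made up 0.697% of the di-tags of members and 0.658% of those of other bins. Without 1 Mb at either end of each arm the means were 38.4 in members and 31.3 in other bins. What this difference comes from was not tested.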

How the results depend on the processing

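Of 12 alternatives, 10 left the number of members within 1.5 times of 3961. It was 590 with the short range from 20 kb, and 2633 with a threshold of 1.5. The median run length of 40 kb was 20 kb with the short range from 20 kb, 50 kb with gaps of 1 bin bridged, and 30 or 40 kb otherwise. The median TAD size of 70 kb moved to 80 kb with a threshold of 1.0, and to 60 kb with a threshold of 1.5, with the long range to 1000 kb and with only the members whose interval lay at or above the threshold. The share of members within 10 kb of a boundary was 23.7% with the short range from 20 kb and 57.9% within 20 kb, and a tolerance of 5 kb selects the same bins as 10 kb. Contact between members beyond 500 kb was above 1 in all 14 alternatives, but outside its narrow counting interval in 12. It was 1.15 with raw di-tags in the rule, 1.10 with a threshold of 1.0, 1.24 with 1.5, 1.25 with the short range from 20 kb, 1.21 with the long range to 1000 kb, 1.18 with cis totals of at least 0.5 of the median, 1.17 without 1 Mb at the arm ends, 1.17 without bins of very high sums, 1.18 without bins beside unfilled bins, 1.19 with members whose interval lay at or above the threshold, 1.18 for pairs over 1 Mb apart and 1.18 with raw di-tags over bin totals. With the long range to 1000 kb the rule itself used pairs up to 1000 kb apart, so that 1.21 includes pairs that chose the bins. Between arms, contact between members was 1.20 on the normalised signal. With raw di-tags in the rule 3604 members (91.0%) were chosen again, and 3814 (96.3%) with iterative correction. The causes were not tested. Doubling of one-sided distances at arm ends moved none of these values beyond its limit, and gave 3940 members. This doubling, the bridging of gaps and the choice by interval were added after seeing the data. No paired analysis was possible because the replicates were pooled.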
